A study of Homo sapiens with 12 samples.

Results

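The ZNF genes are the human protein-coding genes whose symbol is ZNF followed by digits and at most 1 capital letter. The RefSeq annotation of GRCh38.p14 holds 509 of them among 20037 protein-coding genes. Of the 509, 246 lie on chromosome 19. A cluster was defined as a run of at least 5 ZNF genes on that chromosome with gaps of at most 500 kb between neighbouring spans, which gave 10 clusters with 232 genes. The other 277 ZNF genes lie on 21 chromosomes. Counts by strand need a known strand, which was at hand for 452 ZNF genes (209 in the clusters and 243 outside), and the remaining 57 were not analysed here. Of the 452, 421 had enough RNA counts to be tested.

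Most ZNF proteins carry an array of C2H2 zinc fingers, small domains held by a zinc ion that each read a few bases of DNA. Many also carry a KRAB domain, which recruits TRIM28, the methyltransferase SETDB1 and HP1 proteins, and this machinery is known for silencing transposable elements. The families on chromosome 19 arose by tandem duplication, so neighbours can be close in sequence.

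RNA and chromatin came from K562, an established human line derived from chronic myelogenous leukaemia, at passages 3 to 5. All RNA came from cells given 500 µM 4-thiouridine (4sU), a uridine analogue built into new RNA, for 5 min. There are 4 RNA groups with 2 libraries each. TT-Seq RNA was sheared with a BioRuptor sonicator and then purified for 4sU, and 4sU-Seq RNA was purified without shearing. Neither Total RNA-Seq nor Total RNA-Frag-Seq was purified, and only the latter was sheared. They are called unsheared and sheared total RNA below. The other 4 libraries are chromatin immunoprecipitations (ChIP) after 7.5 min of crosslinking. In S2P ChIP (2 libraries) the antibody recognises RNA polymerase II phosphorylated at serine 2, and in N20 ChIP (2 libraries) it is the polymerase antibody N-20. No input library was used here. The submitters call the RNA libraries biological duplicates, while nothing says so for ChIP, whose spread may be technical.

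Binned counts summed to 25.9 to 71.3 M in the RNA libraries and 12.6 to 73.7 M in the ChIP libraries. On the coding genes analysed, 94.4% to 95.3% of the RNA counts within gene spans lay on the sense strand. Of the genes that mark K562 cells, 6 are given here (GATA1, KLF1, TAL1, LMO2, TFRC and EPOR). None of the 6 was at 0 in any RNA library, and their summed level was 859 to 1038 CPM (counts per 1 M counts on coding genes). Of 11 markers of other cell types, 4 had a strand (PTPRC, EPCAM, CD79A and ALB), with none at 0 and a summed 166 to 263 CPM, mostly from the leucocyte gene PTPRC. The sources used here do not give how reads with several matches in the genome were counted, so the split of counts between near-identical ZNF genes is uncertain.

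Promoter sequences from RefSeq (GRCh38.p14, 250 bases before to 50 bases after the start) were available for 430 ZNF genes and 15842 protein-coding genes in all. They were searched on both strands for CCGGAAG, the core read by ETS factors such as GABPA, for the NF-Y box CCAAT, for the YY1 sequence AAGATGG, and for ACTACAA, part of the site read by ZNF143. The start of AAGATGG can share bases with the end of CCGGAAG or of ACTACAA. A match to CCGGAAG was found in 39.1% of ZNF promoters, 46.1% of those in the clusters and 32.7% of the others, against 14.2% of all coding promoters. CCAAT was found in 48.6% of ZNF promoters, 56.4% in the clusters and 41.6% outside, against 36.4% of all. AAGATGG stood at 6.98% against 6.36%, and ACTACAA at 5.58% against 3.13%. Among promoters with CCGGAAG, a match began within the last 40 bases before the start or at it in 52.4% of ZNF genes and 34.9% of all coding genes. Such a match can run past the start. A match in these letters is a description and not a measured binding site.

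**Figure D1:**
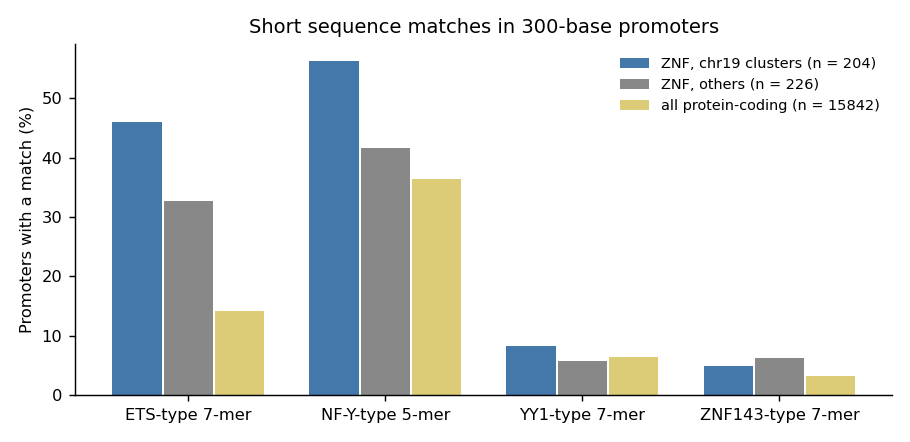
Share of 300-base RefSeq promoters (y axis, percent) with at least 1 match on either strand to the ETS-type, NF-Y-type, YY1-type and ZNF143-type sequences spelled out in the text. The bars show 204 ZNF promoters in the chromosome 19 clusters, 226 other ZNF promoters and all 15842 coding promoters. The ETS-type bar reaches 46.1% in the clusters against 14.2% in all.

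The CCGGAAG matches were unevenly spread over the clusters. Cluster 4 (ZNF101 to ZNF254) had them in 21 of 29 promoters, 19 of these beginning within the last 40 bases before the start or at it. Cluster 10 (ZNF264 to ZNF446) had them in 27 of 40 and cluster 8 (ZNF175 to ZNF331) in 20 of 32. Cluster 3 (ZNF653 to ZNF791) had them in 2 of 24. Several ZNF promoters share a fuller layout on the strand of the gene, with a CCAAT box, another one 20 to 40 bases further on, and CTTCCGG, which is CCGGAAG on the other strand, 20 to 50 bases after that. This layout was noticed while reading the sequences and is given as a description. It was found in 22 of 430 ZNF promoters (5.12%) and in 4 of the 15412 other coding promoters. Of the 22 genes, 13 belong to cluster 4, where they make up 44.8% of the promoters, and the other 9 lie on other chromosomes. The 4 shown next carry the layout in genes that the results below return to. ZNF595 had the highest TT-Seq level of the family and ZNF431 the highest in cluster 4, ZNF107 led 4sU-Seq over unsheared total RNA, and ZNF43 was near-silent. Capitals mark matches to the 4 searched sequences on either strand. The RefSeq start used for ZNF43 lies inside its annotated span.
ZNF595 (chr4:53071-53370, plus strand): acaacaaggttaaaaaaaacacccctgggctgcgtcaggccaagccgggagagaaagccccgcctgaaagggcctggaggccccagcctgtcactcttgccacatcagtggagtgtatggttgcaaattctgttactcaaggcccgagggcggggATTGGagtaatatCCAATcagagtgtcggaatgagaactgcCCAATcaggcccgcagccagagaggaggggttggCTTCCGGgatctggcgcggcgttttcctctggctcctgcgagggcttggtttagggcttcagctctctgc
ZNF431 (chr19:21141790-21142089, plus strand): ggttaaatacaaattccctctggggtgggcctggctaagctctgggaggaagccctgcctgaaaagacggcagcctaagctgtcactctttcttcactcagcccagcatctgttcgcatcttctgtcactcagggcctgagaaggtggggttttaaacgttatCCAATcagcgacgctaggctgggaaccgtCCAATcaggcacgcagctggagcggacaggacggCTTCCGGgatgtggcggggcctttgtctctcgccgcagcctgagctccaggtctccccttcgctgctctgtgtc
ZNF107 (chr7:64665883-64666182, plus strand): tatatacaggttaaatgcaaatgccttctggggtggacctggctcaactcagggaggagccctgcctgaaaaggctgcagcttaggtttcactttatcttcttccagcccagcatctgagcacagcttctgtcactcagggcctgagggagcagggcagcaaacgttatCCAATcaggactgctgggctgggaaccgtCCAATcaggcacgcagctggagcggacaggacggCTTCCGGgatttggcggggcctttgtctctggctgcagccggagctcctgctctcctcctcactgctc
ZNF43 (chr19:21836133-21836432, minus strand): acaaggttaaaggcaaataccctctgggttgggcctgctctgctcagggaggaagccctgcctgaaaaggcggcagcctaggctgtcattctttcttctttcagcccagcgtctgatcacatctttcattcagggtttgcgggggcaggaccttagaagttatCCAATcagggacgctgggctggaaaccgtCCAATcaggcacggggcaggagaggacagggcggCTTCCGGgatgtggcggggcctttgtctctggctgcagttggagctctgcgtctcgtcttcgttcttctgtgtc

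The shared layout came with very different output. In TT-Seq the 22 genes spanned 0.00134 (ZNF141) to 24.6 (ZNF595) CPM per kb of span, with a median of 0.891. In the tests described below, 10 of the 21 tested were higher and 6 lower in TT-Seq against sheared total RNA (32.9% and 35.6% of all coding genes), and 9 were higher and 2 lower against 4sU-Seq (32.5% and 31.7% of all). For contrast, the promoters of ZNF175, highest in cluster 8, and of ZNF593, lowest in TT-Seq against 4sU-Seq, hold CCGGAAG on the strand of the gene and lack the layout. In ZNF593 the match lies just after the start.
ZNF175 (chr19:51571033-51571332, plus strand): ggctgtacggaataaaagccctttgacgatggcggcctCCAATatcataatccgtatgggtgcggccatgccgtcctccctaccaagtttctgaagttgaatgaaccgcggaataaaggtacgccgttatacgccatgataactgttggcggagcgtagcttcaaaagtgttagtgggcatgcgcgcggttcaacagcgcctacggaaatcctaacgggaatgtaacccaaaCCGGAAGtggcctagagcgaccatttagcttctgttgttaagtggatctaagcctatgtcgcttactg
ZNF593 (chr1:26169658-26169957, plus strand): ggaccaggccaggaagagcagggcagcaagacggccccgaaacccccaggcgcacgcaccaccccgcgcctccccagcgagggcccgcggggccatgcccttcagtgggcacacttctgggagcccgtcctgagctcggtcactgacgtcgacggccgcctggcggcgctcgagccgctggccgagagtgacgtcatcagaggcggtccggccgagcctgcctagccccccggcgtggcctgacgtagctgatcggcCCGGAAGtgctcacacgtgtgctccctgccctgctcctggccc

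A gene was called near-silent when its TT-Seq level was below 0.1 CPM per kb in both libraries. ZNF genes without CCGGAAG were more often near-silent, at 58 of 262 (22.1%) against 21 of 168 (12.5%) with it. Outside the clusters the shares were 21.1% without and 6.76% with the match, and within them 23.6% and 17.02%. The median TT-Seq level per kb was 0.697 and 0.702 in the 2 libraries without the match and 0.992 and 0.957 with it. The median N20 level per kb within 500 bp of the start was 7.47 and 8.35 without it and 7.94 and 7.69 with it. Near-silence was also more frequent without than with each other searched sequence. The shares were 21.7% and 14.8% for CCAAT, 19% and 10% for AAGATGG (30 genes with it) and 18.7% and 12.5% for ACTACAA (24 genes with it). These are shares over genes, which are not replicates, and were not tested. Of the 22 genes with the shared layout, 4 were near-silent (ZNF141, ZNF208, ZNF43 and ZNF737).

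Levels of different genes are compared per kb of span. In TT-Seq the median ZNF gene stood at 0.848, against 0.569 for all coding genes with a strand. The lower quartile was 0.295 against 0.00599, but the upper quartile was 1.66 against 1.81, so ZNF genes were not higher throughout. Genes outside the clusters had a median of 1.07 and those in the clusters 0.595. Together the 452 genes held 1.85% to 1.97% of the coding counts in each of the 12 libraries, so their summed share lay within a narrow range in nascent RNA, total RNA and ChIP.

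Near-silence held for 79 of 452 ZNF genes (17.5%), 42 in the clusters (20.1%) and 37 outside (15.2%), against 36.9% of all coding genes. In bulk RNA, a low level in every cell and a higher level in few cells cannot be told apart. Medians by cluster ran from 0.292 in cluster 6 (ZNF565 to ZNF573) and 0.405 in cluster 7 (ZNF575 to ZNF180) to 1.09 in cluster 1 (ZNF554 to ZNF77) and 1.11 in cluster 5 (ZNF302 to ZNF792), both of 5 genes. Near-silent members made up 30.8% of cluster 6, 30% of cluster 7 and 12.2% of cluster 10.

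**Figure D2:**
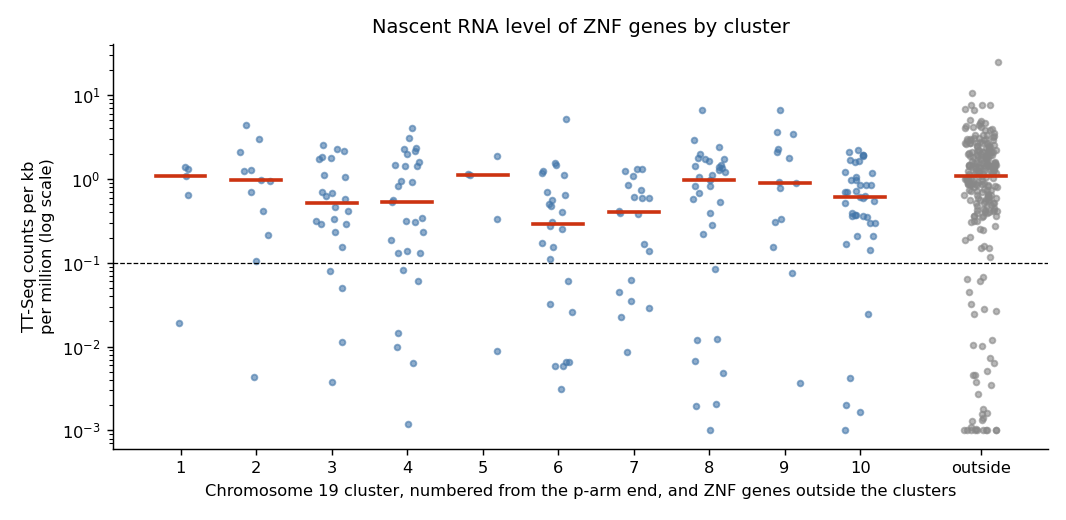
TT-Seq level of each of 452 ZNF genes (points, mean of 2 libraries, CPM per kb on a log scale) in the 10 clusters of chromosome 19, numbered along the chromosome, and outside them. Red bars are medians, the dashed line marks 0.1, and values below 0.001 are drawn at 0.001. Each cluster holds at least 1 near-silent gene and genes above 1, and the highest point, ZNF595 at 24.6, lies outside.

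The 6 genes with the highest mean TT-Seq levels lie outside the clusters. ZNF595 (chr4:53321-88208, GRCh38) stood at 24.97 and 24.1 CPM per kb in TT-Seq, and 4sU-Seq gave 27.5 and 26.5, sheared total RNA 24.4 and 23.7, and unsheared total RNA 24.9 and 25.3. Its level was thus alike in nascent and total RNA, and its counts covered 173 of its 174 bins. ZNF593 (chr1:26169908-26170873), which acts in assembly of the large ribosomal subunit, was next at 9.45 and 12.03 in TT-Seq, but 4sU-Seq gave 34.3 and 45.3. ZNF451 (chr6:57090188-57170305), a SUMO ligase, stood at 7.73 and 7.56 in TT-Seq and at 6.53 to 7.75 in the other RNA libraries. ZNF281, which binds GC-rich promoters, read 8.27 and 6.92 in TT-Seq and 15.1 and 15.4 in unsheared total RNA. ZNF207, a spindle assembly protein, read 7.64 and 7.53 and ZNF24 6.94 and 6.54 in TT-Seq. The TT-Seq ranges of ZNF451, ZNF281 and ZNF207 overlapped, as did those of ZNF281 and ZNF24, so their order is not resolved.

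Within the clusters, the highest TT-Seq levels per kb were 6.15 and 7.22 for ZNF580 in cluster 9 (ZNF628 to ZNF835) and 6.68 and 6.51 for ZNF175 in cluster 8. Both ranges overlapped that of ZNF24, so the order of these genes is not resolved either. ZNF580 overlaps ZNF581 on the same strand, so its counts may belong to either gene. ZNF146 in cluster 6 followed at 5.25 and 5.13, ZNF121 in cluster 2 at 4.24 and 4.44 and ZNF431 in cluster 4 at 4.04 and 4.01. The remaining leaders were ZNF627 in cluster 3 (2.46 and 2.57), ZNF587 in cluster 10 (2.14 and 2.28), ZNF792 in cluster 5 (1.92 and 1.80), ZNF57 in cluster 1 (1.32 and 1.47) and ZNF224 in cluster 7 (1.31 and 1.34). Cluster 6, which has the lowest median, thus also holds ZNF146, whose TT-Seq level exceeded that of 95.4% of coding genes.

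The first comparison sets fragments labelled within 5 min (TT-Seq) against all fragments of the cell (Total RNA-Frag-Seq). Of 421 ZNF genes tested, 144 were higher and 125 lower (edgeR, adjusted p under 0.05), where 68.5% of all 13178 coding genes passed, 32.9% higher and 35.6% lower. The median log2 fold change was 0.03, against -0.05 for all genes. In the clusters 68 were higher and 41 lower, with a median of 0.10, and outside 76 were higher and 84 lower, with a median of -0.03. These small medians depend on the scaling: without TMM, which shifted the median of all genes by -0.11, 108 ZNF genes were higher and 152 lower (51 and 56 in the clusters), the ZNF median was -0.08 and the cluster median -0.01. Without the first and last 1 kb of each span 121 were higher and 152 lower (58 and 61 in the clusters), and the ZNF median was -0.03. Over all genes 34.0% were higher and 34.2% lower in that fit, with a median of -0.02. Among the larger clusters, cluster 8 had 14 genes higher and 1 lower of 28, and cluster 10 had 10 higher and 13 lower of 38.

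The highest fold changes belonged to ZNF658, ZNF230, ZNF322, ZNF35, ZNF396 and ZNF222. ZNF322 (chr6:26634383-26659746) had 52.0 and 49.5 CPM in TT-Seq, and 4sU-Seq gave 32.1 and 28.0, sheared total RNA 21.9 and 20.3, and unsheared total RNA 21.9 and 21.0. It was highest in both TT-Seq libraries, with 4sU-Seq between these and total RNA, and its log2 fold change was 1.26 ± 0.09 (SE, n = 2 against 2, edgeR adjusted p 3.57e-08). ZNF35 followed the same order, with 26.8 and 24.7 CPM in TT-Seq, 4sU-Seq at 18.02 and 17.2, sheared total RNA at 10.3 and 12.03 and unsheared at 12.4 and 11.1 (1.21 ± 0.10, adjusted p 2.14e-07). ZNF658 had 5.05 and 5.27 CPM in TT-Seq against 1.82 and 2.06 in sheared total RNA (1.42 ± 0.17, adjusted p 5.37e-06). ZNF230 and ZNF222, both in cluster 7, had 1.28 ± 0.20 and 1.16 ± 0.22, and ZNF396 had 1.20 ± 0.14. The value of ZNF396 was 0.79 without the first and last 1 kb.

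At the other end stood ZNF853, ZNF593, ZNF598, ZNF514, ZNF358 and ZNF655. ZNF853 (chr7:6615610-6624290) had 1.87 and 1.99 CPM in TT-Seq, and 4sU-Seq gave 2.61 and 3.16, sheared total RNA 6.10 and 5.49, and unsheared total RNA 6.49 and 7.03. Both purified groups were below both total groups, and the log2 fold change was -1.59 ± 0.16 (adjusted p 1.01e-06). ZNF598, a ubiquitin ligase that acts on collided ribosomes, had 20.3 and 21.3 CPM in TT-Seq, while 4sU-Seq gave 37.0 and 47.9, sheared total RNA 49.6 and 47.8, and unsheared total RNA 57.4 and 62.6 (-1.23 ± 0.11, adjusted p 6.27e-07). ZNF655 had 90.1 and 89.6 CPM in TT-Seq against 182 and 177 in sheared total RNA (-0.996 ± 0.05, adjusted p 4.69e-09). ZNF593 had -1.33 ± 0.15, ZNF514 -1.07 ± 0.09 and ZNF358 -1.04 ± 0.13. Without the first and last 1 kb, ZNF358 had -0.35.

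**Figure D3:**
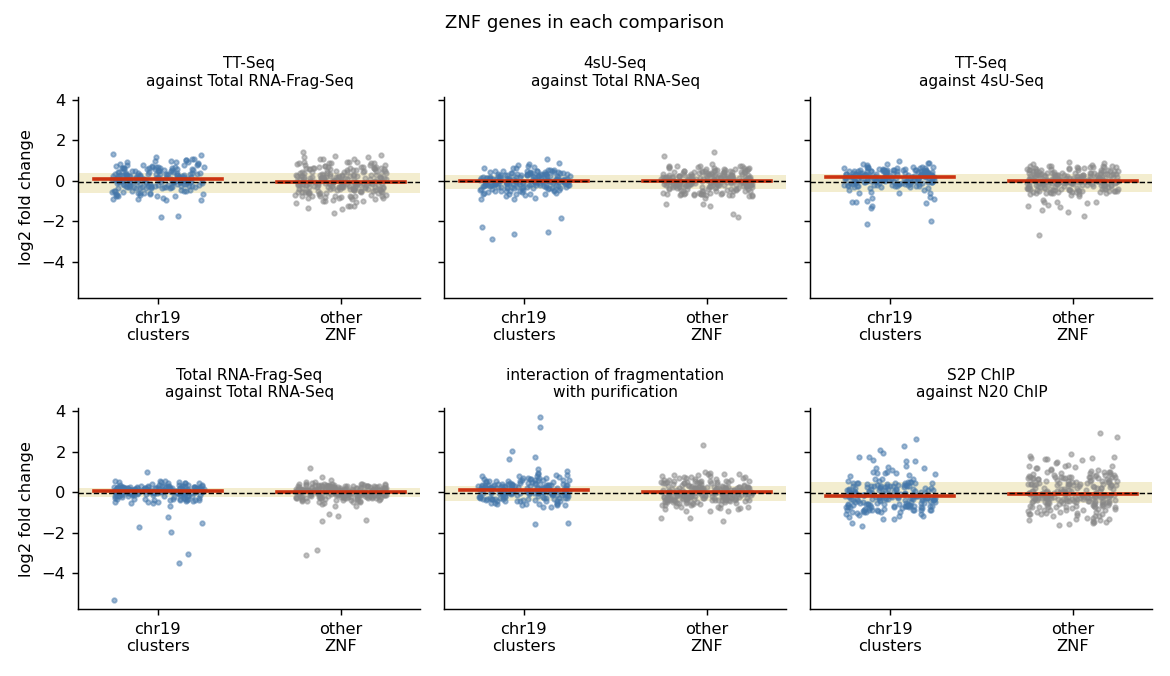
Log2 fold change of each tested ZNF gene (points) in the 6 comparisons, split into chromosome 19 clusters and other ZNF genes. Red bars are medians, the dashed line is the median of all coding genes tested and the shaded band their middle 50%. In TT-Seq against 4sU-Seq the cluster median is 0.19 against -0.03 for all genes (0.01 against -0.21 without TMM scaling).

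TT-Seq against 4sU-Seq asks what shearing before purification changes in the labelled RNA; it shares the TT-Seq libraries with the first comparison. Here 149 ZNF genes were higher and 83 lower, where 64.2% of all genes passed, 32.5% higher and 31.7% lower. In the clusters 78 genes were higher and 23 lower of 195, with a median of 0.19, while outside them 71 were higher and 60 lower with a median of 0.01. The medians of all ZNF genes and of all coding genes were 0.09 and -0.03. Without TMM scaling, which shifted the latter by -0.18, 85 ZNF genes were higher and 145 lower (38 and 44 in the clusters), the ZNF median was -0.08, and the medians were 0.01 in the clusters and -0.17 outside. Without the first and last 1 kb of each span 129 ZNF genes were higher and 100 lower (64 and 29 in the clusters). The ZNF median in that fit was 0.03, against -0.02 for all coding genes. It was 0.13 in the clusters and -0.05 outside.

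The clusters differed among themselves in this comparison. In cluster 4, 16 of 29 genes were higher and 1 lower, with a median of 0.33, and in cluster 6, 13 of 23 were higher and 2 lower, with a median of 0.26. Cluster 8 had 15 higher and 2 lower of 28, with a median of 0.23. Cluster 10 had 4 higher and 5 lower of 38, with a median of -0.05, and cluster 9 had 2 higher and 6 lower of 13, with a median of -0.10. The differences between clusters were not tested.

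ZNF367, ZNF878, ZNF624, ZNF492, ZNF658 and ZNF430 led this comparison. ZNF367 (chr9:96385941-96418370) had 95.0 and 98.4 CPM in TT-Seq, and 4sU-Seq gave 51.7 and 48.7, sheared total RNA 52.0 and 49.2, and unsheared total RNA 47.7 and 43.9. Both TT-Seq libraries stood apart from the 6 others, and the log2 fold change was 0.95 ± 0.07 (adjusted p 1.23e-07). ZNF430, which also carries the shared promoter layout, had 68.3 and 69.7 CPM in TT-Seq, while 4sU-Seq gave 40.3 and 37.6, sheared total RNA 54.3 and 53.7, and unsheared total RNA 45.6 and 44.8 (0.83 ± 0.06, adjusted p 2.4e-07). In this gene 4sU-Seq was the lowest group. ZNF624 had 0.89 ± 0.10, ZNF492 0.87 ± 0.13 and ZNF658 0.83 ± 0.15. ZNF878, at 0.91 ± 0.26, rests on 27 to 85 counts per library and did not pass without TT-Seq replicate 1 (adjusted p 0.0812), without the first and last 1 kb (adjusted p 0.0743) or with DESeq2 (adjusted p 0.0613).

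ZNF593, ZNF768, ZNF579, ZNF511, ZNF358 and ZNF784 were lowest. ZNF593 had 8.31 and 10.6 CPM in TT-Seq, and 4sU-Seq gave 27.1 and 34.7, sheared total RNA 25.4 and 21.8, and unsheared total RNA 30.3 and 26.7. TT-Seq alone was low, with a log2 fold change of -1.71 ± 0.15 against 4sU-Seq (adjusted p 1.63e-06). ZNF768 had 22.1 and 25.5 CPM in TT-Seq against 48.2 and 67.4 in 4sU-Seq (-1.28 ± 0.14, adjusted p 1.72e-05). ZNF579 had -1.23 ± 0.11, ZNF511 -1.22 ± 0.14, ZNF358 -1.21 ± 0.12 and ZNF784 -1.07 ± 0.14. ZNF768 overlaps ZNF747, and ZNF511 a read-through gene with PRAP1, on the same strand.

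**Figure D4:**
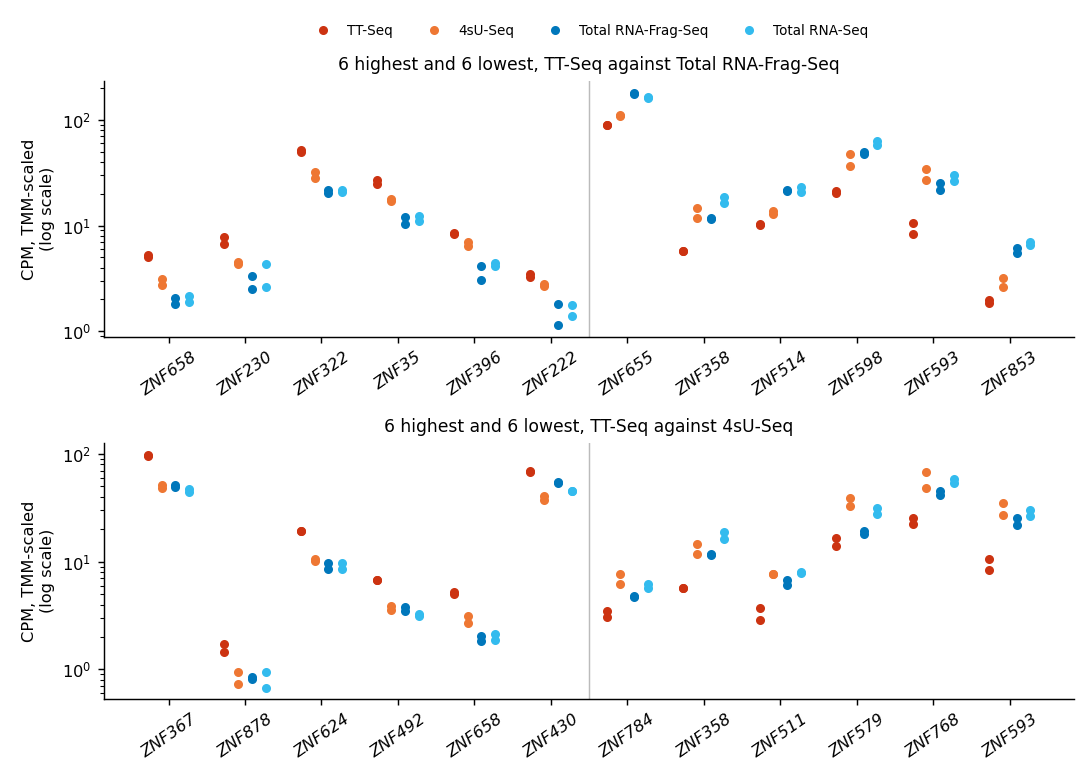
CPM after TMM scaling (log axis) in each of the 8 RNA libraries (points, coloured by group) for the 6 highest and 6 lowest ZNF genes of the comparisons of TT-Seq with sheared total RNA and with 4sU-Seq. ZNF322 falls in steps from 52.0 in TT-Seq to 20.3 in Total RNA-Frag-Seq, whereas ZNF367 is high in TT-Seq alone.

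The length of the span went along with both comparisons. The 6 lowest genes against 4sU-Seq have spans of 0.966 kb (ZNF593) to 8.47 kb (ZNF768), and of 49 tested ZNF genes below 10 kb, 26 were lower (53.1%) and 6 higher, with a median of -0.33. Of other coding genes of that length 66.3% were lower, with a median of -0.73. From 10 to 25 kb, 55 of 170 ZNF genes were higher (32.4%) and 30 lower (17.6%), against 22.5% and 41.5% of other coding genes. The medians were 0.12 and -0.17. From 25 to 50 kb, 59 of 125 were higher (47.2%) and 16 lower (12.8%), against 41.5% and 24.5% of other coding genes, with medians of 0.21 and 0.11. From 50 kb up the medians were 0.06 in 77 ZNF genes and 0.16 in other genes. Against sheared total RNA the ZNF medians were -0.32, 0.06, 0.15 and 0.02 in these 4 ranges of length, and those of other genes -0.80, -0.30, 0.01 and 0.22. The part of length in the result was not tested.

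4sU-Seq against Total RNA-Seq compares labelled with all RNA without shearing. Both directions held 102 ZNF genes, where 58% of all genes passed, 27.7% higher and 30.3% lower, and the medians were -0.02 for ZNF genes and for all genes. The even split depended on scaling, span and libraries. Without TMM, which shifted the median of all genes by -0.07, 88 were higher and 128 lower (23.3% and 35.4% of all genes). Without the first and last 1 kb the numbers were 86 and 130, where 28.7% and 31.8% of all genes passed as higher and lower. Without 4sU-Seq replicate 2 higher calls outnumbered lower ones, and the ZNF median was 0.04 against -0.03 for all genes. ZNF107 (chr7:64666133-64711577) had 285 and 218 CPM in 4sU-Seq and 104 and 108 in unsheared total RNA, a log2 fold change of 1.24 ± 0.10 (adjusted p 2.92e-06). TT-Seq lay between them at 162 and 170. ZNF221 and ZNF112, both in cluster 7, followed with 1.09 ± 0.17 and 0.88 ± 0.16. ZNF43 was lowest at -1.82 ± 0.28, followed by ZNF853 at -1.23 ± 0.16 and ZNF548 at -0.90 ± 0.14. ZNF853 was thus low against total RNA with and without shearing, in comparisons that share no library.

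The effect of shearing alone is seen in sheared (Total RNA-Frag-Seq) against unsheared total RNA (Total RNA-Seq). Of the ZNF genes, 83 were higher and 40 lower, where 33.2% of all genes passed, 21.1% higher and 12.1% lower. The median was 0.05 against -0.01 for all genes. Without TMM scaling, which moved the latter by -0.14, 39 were higher and 88 lower, with a ZNF median of -0.08. The count of 123 fell to 62 without Total RNA-Seq replicate 2, 69 without Total RNA-Frag-Seq replicate 2 and 72 without Total RNA-Seq replicate 1, and the 40 lower fell to 24 without Total RNA-Frag-Seq replicate 1. ZNF609, known for its circular RNA, had 757 and 810 CPM in sheared and 521 and 525 in unsheared total RNA (0.58 ± 0.06, adjusted p 2.93e-05). ZNF730 had 0.57 ± 0.10 and ZNF846 0.55 ± 0.14, the latter with adjusted p 0.102 without Total RNA-Seq replicate 2. By length, 43 of 77 ZNF genes of 50 kb or more (55.8%) were higher and 6 lower, against 47.9% higher among other coding genes of that length.

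The lowest genes here were ZNF43, ZNF569 and ZNF331. ZNF43 (chr19:21804946-21852065) had 30 and 16 raw counts in sheared and 67 and 75 in unsheared total RNA, with 27 to 41 in the 4 purified libraries, and its log2 fold change was -1.96 ± 0.30 (adjusted p 0.000342). ZNF569 had 42 and 27 counts against 99 and 61 (-1.52 ± 0.25, adjusted p 0.000548). ZNF331, an imprinted gene, had 55 and 40 against 121 and 59 (-1.22 ± 0.29, adjusted p 0.00656), and -0.75 with adjusted p 0.116 without Total RNA-Seq replicate 1.

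All 3 were near-silent. Of the 79 near-silent ZNF genes, 18 had a higher CPM in both Total RNA-Seq libraries than in every other RNA library. The same was so for 4 in TT-Seq, 3 in 4sU-Seq and 0 in Total RNA-Frag-Seq. Among 6175 other near-silent coding genes the shares were 16.7% for Total RNA-Seq, 2.96% for TT-Seq, 6.04% for 4sU-Seq and 1.64% for Total RNA-Frag-Seq. With at least 20 counts, the Total RNA-Seq share was 27.4% of 62 near-silent ZNF genes and 25.2% of 3352 others. Near-silent genes were chosen by low TT-Seq values, so a low number for TT-Seq is partly built in. Genes above the limit were not compared in this way here. ZNF549, in cluster 10, had 24 and 15 counts in unsheared total RNA and 0 to 8 elsewhere, and ZNF302, in cluster 5, had 33 and 15 against 2 to 11. The B-cell marker CD79A had 12 and 17 counts in unsheared total RNA and 1 to 9 elsewhere and passed as lower in sheared than in unsheared total RNA. The blood cell marker PTPRC and the epithelial marker EPCAM did not pass in that comparison, and the liver marker ALB held 1 to 19 counts. The part of these values in the results for ZNF43, ZNF569 and ZNF331 was not tested.

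Whether purification acted differently on sheared and unsheared RNA was tested as an interaction, the log2 fold change of TT-Seq over sheared total RNA minus that of 4sU-Seq over unsheared total RNA. It was positive for 84 ZNF genes and negative for 77, where 46.8% of all genes passed, 21.4% higher and 25.4% lower. In the clusters 41 were positive and 24 negative, and outside 43 and 53. Without TMM scaling 69 were positive and 87 negative, and without 4sU-Seq replicate 2 the numbers were 75 and 84, so the larger direction turned. The 77 fell to 50 without TT-Seq replicate 1, 51 without TT-Seq replicate 2 and 51 without Total RNA-Seq replicate 1. ZNF593 was most negative, at -1.44 ± 0.20 (adjusted p 0.000253): its TT-Seq level was below that of sheared total RNA, while 4sU-Seq and unsheared total RNA overlapped. ZNF629 had 11.4 and 10.9 CPM in TT-Seq and 19.02 to 23.8 in the other 6 RNA libraries (-0.94 ± 0.12, adjusted p 8.4e-05). ZNF43 and ZNF569 were highest, at 1.73 ± 0.43 and 1.62 ± 0.33, and the high values of unsheared total RNA enter there.

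Counts along the span also differed between nascent and total RNA. In each gene with at least 50 counts in every RNA library, the span was cut into 5 equal parts. In 163 cluster genes the first part held a median of 23.9% and 24.2% of the TT-Seq counts and 15.2% to 16.9% of those in the 4 total RNA libraries. The last part held 19.97% and 18.6% in TT-Seq, 22.1% and 22.5% in 4sU-Seq and 30.5% to 34.6% in total RNA. Outside the clusters the last part of 206 genes held 19.2% and 18.5% in TT-Seq and 27.5% to 30.8% in total RNA. All coding genes had 21.1% and 20.4% in TT-Seq and 30.6% to 35.4% in total RNA, so a larger last part in total RNA was also seen outside the ZNF genes.

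Past the annotated end, TT-Seq kept a larger part of its density. In the 3 kb after the end, the median density was 36.0% and 36.3% of that of the span in TT-Seq, 23.2% and 23.6% in 4sU-Seq and 14.8% to 16.7% in total RNA (339 ZNF genes). In 144 cluster genes it was 42.5% and 43.2% in TT-Seq and 21.6% to 23.8% in total RNA, against 33.9% and 32.5% in TT-Seq and 9.65% to 11.4% in total RNA over 9715 coding genes. The genes were chosen so that no other coding gene with a known strand lay on the same strand in these 3 kb.

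ChIP has no strand, so the counts of a span can include polymerase on a gene of the other strand. Within 500 bp of the start of the span, the N20 level per kb was a median of 9.20 and 9.29 times that of the rest of the span in 379 ZNF genes, against 6.88 and 7.82 in 12542 coding genes. Outside the clusters the N20 ratio was 10.98 and 12.4, and within them 8.18 and 7.95. The S2P ratios were 4.52 and 7.60, against 3.06 and 5.25 in all coding genes. In the window plotted around the start, N20 peaked in the first 200 bp of the span with 19.5% and 18.1% of the counts. TT-Seq was highest there at 0.8 kb, with 3.51% and 3.43%. In the window around the end, which covers another set of genes, TT-Seq was highest in the last 200 bp of the span, with 4.98% and 4.14%.

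**Figure D5:**
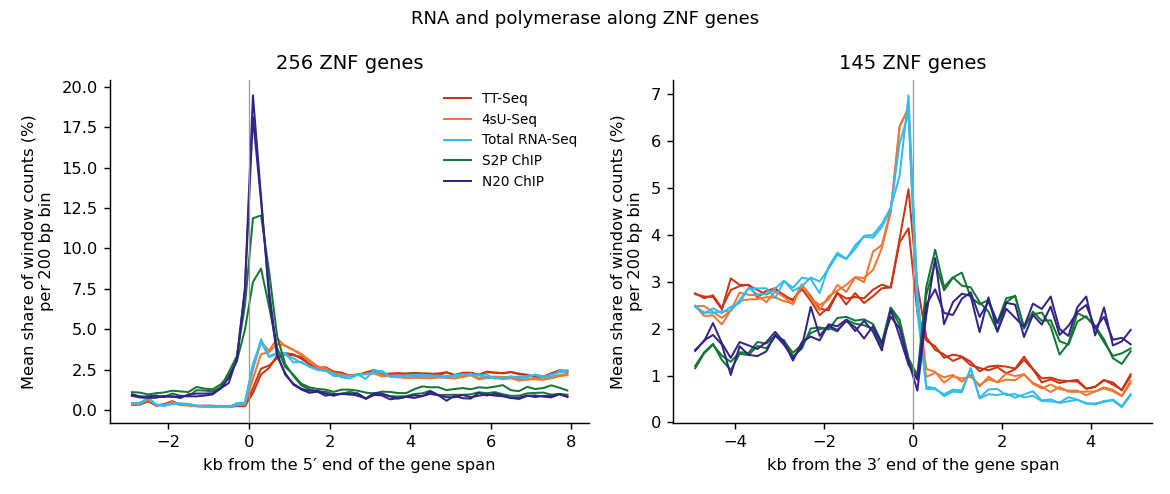
Mean share of counts (percent of the window, per 200 bp bin) around the start of 256 ZNF genes and the end of 145, all with spans of at least 10 kb and 50 counts in the window in every library, against distance in kb. Lines are single libraries, coloured by group. Around the start, N20 peaks at 19.5% and 18.1% in the first bin of the span, and TT-Seq is highest at 0.8 kb. Around the end, TT-Seq is highest in the last bin of the span, at 4.98% and 4.14%.

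The highest N20 levels at the start belonged to ZNF74, ZNF595, ZNF672 and ZNF398, none of them in a cluster. ZNF74, in the region of chromosome 22 lost in DiGeorge syndrome, had 114 and 100.9 CPM per kb in N20 at the start and 9.37 and 8.97 over the rest of its span. S2P gave 21.2 and 36.0 at its start and 13.7 and 12.3 over the rest, so the excess at the start was larger in N20. ZNF595 had 89.7 and 80.2 in N20 at the start, 37.0 and 35.9 times its level over the rest. ZNF672 had 93.7 and 74.4, and ZNF398 had 73.2 and 59.5. ZNF74 stood above the other 3 in both libraries, while ZNF595 and ZNF672 overlapped.

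S2P ChIP against N20 ChIP compares polymerase phosphorylated at serine 2, a mark of elongation, with the N-20 signal. Of 452 ZNF genes 98 were higher and 112 lower, where 47.7% of all 16416 coding genes passed, 25.8% higher and 21.9% lower. In the clusters 54 genes were lower and 30 higher of 209, with a median of -0.18, and the other ZNF genes had 58 lower and 68 higher, with a median of -0.08. The medians of all ZNF genes and of all coding genes were -0.13 and -0.02. Without TMM scaling, which moved the latter by -0.38, 52 ZNF genes were higher and 226 lower. Which direction held more ZNF calls also depended on the N20 libraries. In each fit without 1 N20 library, fewer ZNF genes passed and higher calls outnumbered lower ones, also in the clusters. The share of calls that were higher rose among all coding genes as well. The ZNF median stayed negative, at -0.10 without N20 ChIP replicate 1 and -0.11 without replicate 2, against -0.007 and -0.009 for all coding genes. No call of a named gene reversed in these fits, but some were lost. The cluster medians in these fits were -0.15 and -0.18. DESeq2 called 94 in each direction.

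Clusters 6 and 9 had the lowest and highest medians among clusters with more than 5 genes. In cluster 6, 13 of 26 genes passed, each of them lower, with a median of -0.56. In cluster 9, 8 of 14 were higher and 3 lower, with a median of 0.95. Length went along here as well: below 10 kb 20 of 51 ZNF genes (39.2%) were higher and 3 lower, against 27.0% higher among other coding genes. From 50 kb up 12 of 80 were higher and 37 lower (46.3%), against 38.4% lower among other coding genes. In the last of the 5 parts of the span, S2P held 12.1% and 10.2% of the counts of cluster genes, against 21.4% and 19.1% in all coding genes. For N20 these shares were 12.1% and 11.62% against 16.4% and 15.9%. The part of length in these values was not tested.

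ZNF513, ZNF276 and ZNF580 were highest. ZNF513 (chr2:27377235-27380734) had 290 and 374 CPM in S2P and 45.7 and 42.9 in N20, a log2 fold change of 2.91 ± 0.16 (adjusted p 6.66e-06). ZNF276 had 1295 and 1790.4 CPM in S2P and 218 and 242 in N20 (2.74 ± 0.18, adjusted p 8.19e-06), and ZNF580 had 190 and 362 against 35.8 and 51.2 (2.65 ± 0.39, adjusted p 0.00542). All 3 overlap other genes, SNX17 for ZNF513, VPS9D1 and FANCA for ZNF276, and ZNF581 for ZNF580, so the signal may belong to those. ZNF181, ZNF385D and ZNF474 were lowest. ZNF385D had 62.9 and 62.1 CPM in S2P and 210 and 175 in N20 (-1.62 ± 0.14, adjusted p 1.69e-05), with 25 to 80 RNA counts per library over 961 kb. ZNF181 had -1.67 ± 0.40 (adjusted p 0.0113), and adjusted p 0.0588 without N20 ChIP replicate 1. ZNF474 had -1.56 ± 0.52 (adjusted p 0.0405), with -0.81 without N20 ChIP replicate 2 (adjusted p 0.362) and -2.45 without S2P ChIP replicate 1.

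Among 17 ZNF genes with a described role outside KRAB repression, 16 were tested, and ZNF703 was not analysed here. Against sheared total RNA 6 were higher in TT-Seq: ZNF143 (0.87), which activates small nuclear RNA genes, ZNF326 (0.72), part of a complex that links elongation to splicing, ZNF217 (0.65), an oncogene product of breast cancer, ZNF592 (0.49), ZNF622 (0.46), which acts on the large ribosomal subunit, and ZNF148 (0.43). Another 8 were lower: ZNF593 (-1.33), ZNF598 (-1.23), ZNF687 (-0.68), ZNF281 (-0.60), ZNF335 (-0.50), which acts with histone methyltransferase complexes, ZNF263 (-0.45), ZNF638 (-0.22), which brings the HUSH silencing complex to retroviral DNA, and ZNF207 (-0.16). ZNF384 (0.13) and ZNF609 (-0.11) did not pass. ZNF592 and ZNF687, which share a complex with ZMYND8, thus went opposite ways. ZNF207 had an adjusted p of 0.0935 to 0.192 without TT-Seq replicate 1, TT-Seq replicate 2 or Total RNA-Frag-Seq replicate 1, and ZNF638 one of 0.0698 without TT-Seq replicate 2.

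ZNF143 had 105 and 113 CPM in TT-Seq, 4sU-Seq gave 67.2 and 67.6, sheared total RNA 57.1 and 62.2, and unsheared total RNA 46.4 and 51.3, so the groups did not overlap. Against 4sU-Seq 8 of the 16 were higher in TT-Seq and 6 lower, where 32.5% and 31.7% of all genes did so. In S2P against N20, 9 passed, each higher, where 25.8% of all genes were higher and 21.9% lower, led by ZNF687 (1.90), ZNF598 (1.81) and ZNF335 (1.65). Without TMM scaling ZNF207, ZNF217, ZNF609 and ZNF638 did not pass there.

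Of 12 KRAB ZNF genes with a described target, 11 were tested, and ZNF649 was not analysed here. ZNF263 is in this list and in the list of described roles above. Against sheared total RNA 5 were higher in TT-Seq: ZNF568 (1.33), known in mouse for repressing a placental Igf2 transcript, ZNF268 (0.88), ZNF93 (0.65), a repressor of LINE-1 elements, ZNF202 (0.51) and ZNF10 (0.25), whose KRAB domain is widely used as a repressor. ZNF263 (-0.45), ZNF445 (-0.28), which guards imprinted regions, and ZNF91 (-0.24), a repressor of SVA elements, were lower. ZNF382 (0.16), ZNF224 (-0.03) and ZNF274 (-0.08), which binds the 3′ ends of ZNF genes themselves, did not pass. ZNF568 rests on 4 to 29 counts per library and did not pass without any 1 of the 4 libraries compared (adjusted p 0.0559 to 0.108) or with DESeq2 (adjusted p 0.131). ZNF10 did not pass without TT-Seq replicate 1 (adjusted p 0.0727) or Total RNA-Frag-Seq replicate 2 (adjusted p 0.0781), nor ZNF91 without either TT-Seq replicate or Total RNA-Frag-Seq replicate 2 (adjusted p 0.0676 to 0.153). ZNF93 had 656 and 659 raw counts in TT-Seq and 287 and 195 in sheared total RNA. Against 4sU-Seq, 5 of the 11 were higher in TT-Seq and 1, ZNF263, lower, where 32.5% and 31.7% of all genes did so. Both lists of ZNF genes stand beside 32.9% higher and 35.6% lower over all genes against sheared total RNA.

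Of 26 genes of the KRAB corepressor machinery, 24 were tested, and TRIM28 and DAXX were not analysed here. Against sheared total RNA 8 were higher in TT-Seq (33.3%, against 32.9% of all genes) and 12 lower (50%, against 35.6%), with a median of -0.15 beside -0.05 for all genes. ATF7IP, the partner of SETDB1, was highest, with 317 ± 10.4 CPM (SD, n = 2) in TT-Seq and 169 ± 2.15 in sheared total RNA (0.91 ± 0.05, edgeR adjusted p 8.48e-09). CBX5, which encodes an HP1 protein, was lowest, with 199 ± 6.93 against 554 ± 6.50 CPM (-1.48 ± 0.05, edgeR adjusted p 3.06e-10). In S2P against N20, 12 of the 24 passed, near the 47.7% of all genes. Each of the 12 was higher (25.8% of all genes were), and the median of the list was 0.41. Without TMM scaling the median of all genes in that comparison shifted by -0.38, and the list was not counted in that fit. Other C2H2 families, named by the symbols ZBTB, ZSCAN, ZKSCAN and ZFP, had 22 higher and 26 lower of 73 in TT-Seq against sheared total RNA, with a median of -0.03, and 27 higher and 22 lower against 4sU-Seq, with a median of 0.14. These shares, 30.1% and 35.6% in the first and 37.0% and 30.1% in the second, lie near those of all genes (32.9% and 35.6%, and 32.5% and 31.7%).

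The authors' deposited table of transcriptional units gives a synthesis and a decay rate, whose unit the sources used here do not give. Units were matched to 241 ZNF genes by a Jaccard index of at least 0.5, and 196 of these had rates. In the authors' deposited table the median decay rate was 0.0118 for ZNF genes, 0.0130 in the clusters and 0.0115 outside, against 0.0141 for other coding genes. The median synthesis rate in the authors' deposited table was 0.00505 for ZNF genes, against 0.00669 for other coding genes. The middle 50% of ZNF decay rates in the authors' deposited table ran from 0.00693 to 0.0242. The differences between these medians were not tested. Some single rates in the authors' deposited table are extreme, such as a decay rate of 4.47e-13 for ZNF790 and 1.26 for ZNF724. In the authors' deposited table ZNF100, ZNF131, ZNF292, ZNF451, ZNF638 and ZNF680 share nearly the same pair, a synthesis rate of 0.277 and a decay rate of 0.139. The rates rest on the same libraries and are no independent measure.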

How the data were processed

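The authors counted RNA and ChIP fragments in 15441419 bins of 200 bp and deposited whole, unnormalized counts (RNA split by strand, ChIP not split). The submitters' processing notes name STAR 2.3.0, Bowtie2 2.1.0, SAMtools and the build hg38 (GRCh38), without saying which step used which. Bin positions and unit rates come from the authors' deposited annotation files.

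Bins whose midpoint lay in the RefSeq GRCh38.p14 span of a gene were summed, on the sense strand for RNA. The strand came from the RefSeq promoter table (430 ZNF genes) or from an overlapping deposited unit (22). Spans were not trimmed where genes overlap. Counts were scaled with TMM and filtered with filterByExpr, and tested with the quasi-likelihood test of edgeR 4.0.16 in R 4.3.3 over all 8 RNA libraries and, separately, the 4 ChIP libraries, with Benjamini-Hochberg adjustment over all coding genes tested. The common dispersion was 0.00309 (RNA) and 0.0221 (ChIP). Every adjusted p comes from edgeR unless DESeq2 (1.42.0) is named. With 2 libraries per group the precision of single genes is limited, and intervals cover these libraries only. The script was tested on simulated data.

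Named genes are the 6 highest and 6 lowest log2 fold changes (3 and 3 in the other comparisons) among ZNF genes past the threshold with a mean of at least 1 CPM and groups that do not overlap, the highest levels per kb overall and in each cluster, the highest N20 starts, the listed genes with described roles or targets, and the extremes of the corepressor list. The members and lists were chosen with earlier results of these data known. Alternatives were other scalings, filters, bins, spans and cluster gaps, a replicate block, and leaving out each library. The promoter layout, the ranges of length, the description of near-silent genes in Total RNA-Seq and the fit on genes with a RefSeq strand alone were added after seeing the data. Protein sequences and the deposited exon and intron tables were not analysed here. Other listed markers of K562 cells are not reported here.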

Additional observations from a re-analysis of the deposited data

Results flagged for a closer look

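The effect of purification differed between sheared and unsheared RNA, by the interaction test of edgeR, for the genes and counts given here, and each value is the log2 fold change of TT-Seq over Total RNA-Frag-Seq minus that of 4sU-Seq over Total RNA-Seq. The difference was positive for 84 ZNF genes and negative for 77 of 421, where 46.8% of all coding genes passed.

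The positive end was led by ZNF43 at 1.73 (adjusted p 0.00482), ZNF569 at 1.62 (adjusted p 0.00139) and ZNF594 at 0.98 (adjusted p 0.0110). ZNF594 had 3.35 and 2.77 CPM in TT-Seq and 1.82 and 1.94 in Total RNA-Frag-Seq, while 4sU-Seq (2.78 and 2.23) and Total RNA-Seq (3.07 and 3.00) lay closer together. Its call was lost without TT-Seq replicate 1 (0.84, adjusted p 0.0645). In ZNF43 and ZNF569 both Total RNA-Seq libraries were the highest of the 8 RNA libraries, at 2.67 and 3.52 CPM against 0.65 to 1.00 elsewhere in ZNF43 and at 3.94 and 2.86 against 1.09 to 2.18 in ZNF569, and the part of this in their values was not tested.

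The negative end held ZNF593 at -1.44 (adjusted p 0.000253), ZNF629 at -0.94 (adjusted p 8.4e-05) and ZNF511 at -0.92 (adjusted p 0.00229). ZNF593 and ZNF511 have spans of 0.966 and 4.25 kb. The value of ZNF511 without the first and last 1 kb of its span was -0.73 (adjusted p 0.0664).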

How the results depend on the processing

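Over the alternatives run, single-gene results stayed on their side of the threshold 2395 times, with the direction kept wherever they passed it. They lost the call 123 times, gained it 71 times and reversed 3 times. A change of sign counted as a reversal only where the main fit or the alternative passed, so changes of sign among uncalled results are not counted. Summary values stayed within their limits 219 times and moved 30 times. The reversals were ZNF622 in 4sU-Seq against unsheared total RNA at 0.56 without the first and last 1 kb of the span, whose cause was not tested, and ZNF638 and ZNF445 in TT-Seq against 4sU-Seq at -0.12 and -0.028 without TMM scaling, which shifts the median of all genes there by -0.18.

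Without TMM scaling, higher and lower ZNF genes numbered 85 and 145 in TT-Seq against 4sU-Seq, 39 and 88 in sheared against unsheared total RNA and 52 and 226 in S2P against N20 ChIP. The medians became -0.013 in the clusters and -0.15 outside for TT-Seq against sheared total RNA, and 0.012 and -0.17 for TT-Seq against 4sU-Seq. With clusters ended by gaps of 250 kb, the cluster median of TT-Seq against sheared total RNA was 0.11.

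Leaving out 1 library at a time gave 62 to 101 calls (48 to 77 higher, 14 to 24 lower) in sheared against unsheared total RNA, 88 to 249 calls (53 to 126 higher, 35 to 142 lower) in S2P against N20 ChIP and 50 to 84 negative calls in the interaction. Fewer samples enter these fits, and a group left with 1 library is assumed to vary like the others.

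The replicate block (replicate number as a block) gave 146 higher and 126 lower in TT-Seq against sheared total RNA, 108 and 109 in 4sU-Seq against unsheared total RNA, 156 and 87 in TT-Seq against 4sU-Seq, 85 and 50 in sheared against unsheared total RNA, 93 and 84 in the interaction and 104 and 109 in S2P against N20 ChIP. Deviations of same-numbered RNA libraries correlated at -0.13 to 0.19 across genes, so the numbers were not taken to pair the libraries. Crossing the numbers of 4sU-Seq and Total RNA-Seq, chosen after seeing the data, gave 91 higher and 89 lower. Every deposited ChIP bin count is even, and halved ChIP counts, also added after seeing the data, gave 96 higher and 112 lower.

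DESeq2 called 73 higher and 28 lower in sheared against unsheared total RNA. Depth limits near-silent genes, where single libraries hold a few counts.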
